A study of Mus musculus with 28 samples.

Results

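The miR-379 to miR-410 cluster is a run of miRNA genes at the distal end of the imprinted Dlk1-Dio3 region of mouse chromosome 12, and 42 of its mature miRNAs were chosen by name from the 1485 mature miRNA names in the deposited counts. They were followed in left ventricular wall taken away from the infarct (the remote zone) of outbred Hsd:ICR(CD-1) mice, in 28 libraries that form 8 groups. Mice had myocardial infarction (MI, by ligation of the LAD coronary artery) on postnatal day 7 (P7), a sham operation at P7, MI on postnatal day 1 (P1) or a sham operation at P1. Tissue was collected 3 days later (4 libraries a group, ages 10 days for P7 and 4 days for P1) or 21 days later (3 libraries a group, ages 28 and 22 days). All mice were left with their mother and litter until sampling. The labels do not say whether each library came from a different mouse, so a p-value here speaks only of the spread between libraries, which may be technical. The 3-day and 21-day libraries were made with different kits, and their levels are therefore not set against each other.

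In the Dlk1-Dio3 region the maternal chromosome expresses long noncoding RNAs (Meg3, Rian and Mirg) together with many small RNAs, and the paternal chromosome expresses protein-coding genes such as Dlk1. The miR-379 to miR-410 hairpins lie at the Mirg end and are processed from RNA of the maternal chromosome. They are best known from brain, embryo and placenta, and in muscle and heart their levels are known to be high around birth and to decline as the animal matures. A mature miRNA pairs with its target mRNAs mainly through its seed, the bases 2 to 8 from its 5′ end.

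The 42 members come from 31 hairpins between chr12:109709060-109743795 on the plus strand of GRCm38, a span of 34736 bases. Neighbouring hairpins lie 74 to 5568 bases apart, with a median gap of 649 bases. In the GENCODE M21 annotation 11 hairpins, miR-382 to miR-410, lie inside Mirg, 7 of them in an exon and 4 in an intron, and the other 20 lie upstream of it. The hairpins of miR-299a, miR-380, miR-376a, miR-539 and miR-409 have an annotated gene on the opposite strand (Mir299b for miR-299a), and whether the deposited counting kept reads of the strands apart is not given in the sources used here.

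Mature sequences of 39 of the 42 members were found in RefSeq (GRCm38.p6). Those of mmu-miR-376c-3p, mmu-miR-487b-3p and mmu-miR-485-5p are named only. The sequences below are written 5′ to 3′, with the seed in capitals. The first set are the members whose rise 3 days after MI at P7 was kept when any single library was left out.
mmu-miR-409-3p: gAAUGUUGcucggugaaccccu
mmu-miR-134-5p: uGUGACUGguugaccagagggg
mmu-miR-494-3p: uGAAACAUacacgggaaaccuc
mmu-miR-666-3p: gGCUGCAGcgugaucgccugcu

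The next set are the members whose rise 21 days after MI at P7 was kept in the same way.
mmu-miR-382-3p: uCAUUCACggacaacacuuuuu
mmu-miR-382-5p: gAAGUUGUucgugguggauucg
mmu-miR-376b-5p: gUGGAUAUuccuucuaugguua
mmu-miR-376b-3p: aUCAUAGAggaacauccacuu
mmu-miR-329-3p: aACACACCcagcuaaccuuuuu
The seeds of these 9 members are all different, which says nothing about their rise. Only 1 pair of the cluster's sequences shares a seed, and it is not among these 9.

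The cluster as a whole held 38 distinct seeds in 39 sequences. The single shared seed belonged to the first 2 hairpins, which also differ by only 2 of 22 bases.
mmu-miR-379-3p: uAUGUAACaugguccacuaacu
mmu-miR-411-3p: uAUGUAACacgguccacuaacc
Other pairs are nearly alike without sharing a seed, and their counts could be mixed if reads were matched with mismatches. The pair of miR-300-3p and miR-381-3p is identical at 19 of 22 positions, the pair of miR-376a-3p and miR-376b-3p at 18 of 21, and the pair of miR-495-3p and miR-543-3p at 18 of 22.
mmu-miR-300-3p: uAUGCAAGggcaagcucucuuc
mmu-miR-381-3p: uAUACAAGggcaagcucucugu
A further shared feature, chosen after the sequences were read and searched on the RNA strand only, was the string GGUNNAC. It stood in 10 of 25 members from the 3p arm (40.0%), against 16 of 709 mouse 3p miRNAs in the table (2.26%), or 6 of 684 (0.877%) without the members. On the 5p arm it stood in 4 of 14 members, against 17 of 697 mouse miRNAs (2.44%). The near copies above are not independent examples of it.

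The cluster was a small part of the miRNA reads and was higher in MI than in sham hearts in 3 of the 4 pairs of groups. Each share below is of all reads of a library after 1 value was kept per mature miRNA (858370 to 8904509 reads at 3 days, 14887663 to 21547949 at 21 days). At 3 days the 42 members took 0.464%, 0.608%, 0.619% and 0.578% of reads after MI at P7, against 0.193%, 0.157%, 0.159% and 0.215% after sham at P7. They took 0.996%, 0.765%, 0.816% and 1.07% after MI at P1, against 0.527%, 0.549%, 0.320% and 0.411% after sham at P1. Every MI library lay above every sham library of the same operation day, and the ratio of the mean shares was 3.13 at P7 and 2.02 at P1. On levels scaled with edgeR's TMM factors and summed over the members the ratios were smaller, 2.24 at P7 and 1.62 at P1, and the P1 groups then overlapped, with 6346 in MI P1 replicate 2 against 6441 in sham P1 replicate 2.

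At 21 days the share was 0.362%, 0.296% and 0.190% after MI at P7, against 0.130%, 0.141% and 0.161% after sham at P7. It was 0.150%, 0.199% and 0.219% after MI at P1, against 0.194%, 0.255% and 0.227% after sham at P1. The P7 groups did not overlap (ratio of means 1.96), with MI P7 replicate 3 closest to the sham libraries, and the P1 groups did overlap (ratio 0.841). On the summed TMM-scaled levels the ratios were 1.52 at P7 and 0.963 at P1. A single member, mmu-miR-411-5p, held 45.3% to 53.7% of the cluster's reads in each 21-day library. Within the 3-day libraries the most abundant member, which was not the same in all of them, held 16.4% to 24.6%. Without the most abundant member of each library the share at 21 days was still 0.103% to 0.175% after MI at P7, against 0.0631% to 0.0762% after sham at P7. In bulk tissue, fewer cells of a type and less RNA per cell cannot be told apart.

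**Figure D1:**
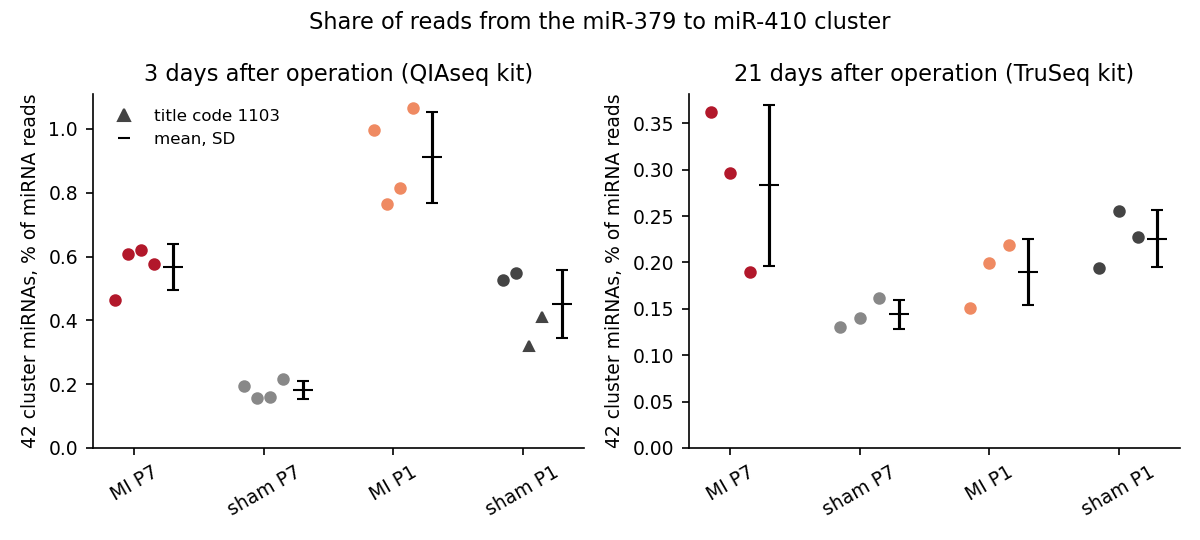
Share of all miRNA reads (percent, y axis) taken by the 42 members in each library, for 4 groups at 3 days (left) and at 21 days (right); points are libraries, triangles are the sham P1 libraries of title code 1103, and bars give mean and SD. The MI P7 libraries lie above the sham P7 libraries at both times, at 0.464% to 0.619% against 0.157% to 0.215% at 3 days and 0.190% to 0.362% against 0.130% to 0.161% at 21 days.

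The libraries behind these values differ in ways that touch the results. The 3-day libraries held 1285821 to 1950058 deposited reads in MI P7, 1613465 to 3415989 in sham P7, 5611717 to 13046126 in MI P1 and 1555562 to 9264467 in sham P1, and the 21-day libraries held 18192577 to 26943560. The sham P1 libraries of 3 days carry 2 title codes, 1078 (replicates 1 and 2) and 1103 (replicates 3 and 4), whose meaning the labels do not give, and they stand apart in the members. The code 1103 libraries had 31 of the 42 members lower than the code 1078 libraries and 11 higher, with mean levels, in CPM (read counts scaled to library size with the TMM factors of edgeR), of 73.7 and 1334 CPM for mmu-miR-379-5p and of 386 and 63.7 CPM for mmu-miR-485-3p. The other 3-day groups differ in this too. All sham P7 libraries of 3 days carry code 1075. The MI P1 libraries carry 1059 (replicate 1) and 1086 (replicates 2, 3 and 4), and the MI P7 libraries 1077 (replicate 1), 1088 (replicate 2) and 1090 (replicates 3 and 4). At 21 days every group has a title code of its own, and at 3 days no title code is shared between groups. Differences between groups and differences between codes can therefore not be told apart at either time. The 5 heart muscle markers (miR-1a-3p, miR-133a-3p, miR-208a-3p, miR-208b-3p and miR-499-5p) were present in all 28 libraries.

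Levels throughout are in CPM, and a fold change is the log2 ratio of 2 groups with its standard error (SE) from one fit per follow-up to all 4 groups. Calls rest on edgeR's quasi-likelihood F test with Benjamini-Hochberg adjustment over all tested names, at an adjusted p under 0.05. The filter on low counts let 32 of the 42 members through at 3 days and 40 at 21 days. The 10 left out at 3 days were mmu-miR-411-3p, mmu-miR-380-3p, mmu-miR-758-3p, mmu-miR-666-5p, mmu-miR-543-3p, mmu-miR-495-3p, mmu-miR-539-5p, mmu-miR-154-3p, mmu-miR-377-3p and mmu-miR-410-3p, and the 2 left out at 21 days were mmu-miR-380-5p and mmu-miR-758-3p. The MI comparisons at P7 and the sham comparison share the sham P7 libraries, and likewise for P1, so their values are given side by side and not set against each other.

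At 3 days after MI at P7, members of the cluster rose and none fell. Of the 32 tested members 9 rose, a share of 28.1%, where 5.16% of all 446 tested names rose and 0.448% fell. The median log2 fold change was 1.19 over the tested members and -0.01 over all tested names, and 29 of the 32 members had a positive value. In 15 of the 32 every MI P7 library lay above every sham P7 library, against 14.6% of all tested names. With only the P7 groups in the fit the filter let 20 members through, so some of the 32 were tested only because of the P1 libraries. Of those 20 members 12 rose, where 65 of 332 names were called in either direction.

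The strongest evidence was for mmu-miR-409-3p. It had 731, 822, 820.3 and 781 CPM after MI at P7, against 193, 145, 173 and 241 CPM after sham at P7. The groups lay far apart, and the MI libraries differed little among themselves, for a log2 fold change of 2.07 ± 0.27 (adjusted p = 3.1e-04). mmu-miR-134-5p, which in rat hippocampal neurons is known to limit dendritic spine size through Limk1, had 580.5, 528, 637 and 565 CPM after MI at P7, against 142, 132, 88.9 and 159.9 CPM after sham at P7. Again no library of one group reached the other, and the fold change was 2.14 ± 0.32 (adjusted p = 5.9e-04).

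mmu-miR-494-3p, one of a set of miRNAs of this region whose inhibition is known to increase vessel growth after hind limb ischaemia in mice, had 53.1, 63.3, 56.4 and 80.2 CPM after MI at P7, against 11.9, 17.6, 10.97 and 21.7 CPM after sham at P7. All MI libraries lay above all sham libraries (2.01 ± 0.43, adjusted p = 0.00912). mmu-miR-666-3p had 6.92, 26.5, 10.3 and 18.8 CPM after MI at P7, against 3.39, 2.52, 3.29 and 4.10 CPM after sham at P7. These groups too did not overlap (2.195 ± 0.47, adjusted p = 0.00912), although the values rest on 6 to 31 reads in MI and 2 to 7 reads in sham libraries.

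The nearly alike mmu-miR-300-3p and mmu-miR-381-3p moved side by side. mmu-miR-300-3p had 58.9, 84.7, 83.5 and 109 CPM after MI at P7, against 45.8, 13.8, 17.6 and 35.1 CPM after sham at P7 (1.57 ± 0.41, adjusted p = 0.0381). mmu-miR-381-3p had 27.7, 44.5, 34.4 and 61.5 CPM after MI at P7, against 18.6, 6.29, 10.97 and 22.3 CPM after sham at P7 (1.501 ± 0.41, adjusted p = 0.0425). In both the lowest MI library lay above the highest sham library.

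mmu-miR-299a-5p had 397, 379.8, 274 and 423 CPM after MI at P7, against 186, 166, 135 and 196 CPM after sham at P7, which did not overlap (1.11 ± 0.30, adjusted p = 0.0425). mmu-miR-541-5p, among the 5 most abundant members at 3 days, had 847, 730.4, 1024 and 892 CPM after MI at P7, against 411.9, 482, 369 and 470.2 CPM after sham at P7 (1.01 ± 0.28, adjusted p = 0.0425). The lowest MI library exceeded the highest sham library here as well. The ninth called member, mmu-miR-323-3p, had a fold change of 1.22 ± 0.34 (adjusted p = 0.0425).

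Other abundant members did not pass. mmu-miR-411-5p had 550.5, 771, 1009 and 766 CPM after MI at P7, against 442, 116, 140.5 and 533 CPM after sham at P7. The groups did not overlap, but the sham libraries spread widely and the fold change of 1.33 ± 0.46 missed the threshold (adjusted p = 0.119). mmu-miR-382-5p had 277, 308, 840.1 and 443 CPM after MI at P7, against 281, 149.8, 156 and 339.6 CPM after sham at P7, and mmu-miR-379-5p of the first hairpin had 105, 204, 193 and 236 CPM after MI at P7, against 83.1, 76.8, 106.5 and 166 CPM after sham at P7. Both overlapped between the groups (adjusted p = 0.280 and 0.678). mmu-miR-668-3p had the opposite sign. It had 50.8, 24.8, 26.4 and 24.8 CPM after MI at P7, against 31.4, 56.6, 60.4 and 34.5 CPM after sham at P7, and did not pass (-0.53 ± 0.58, adjusted p = 0.745).

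**Figure D2:**
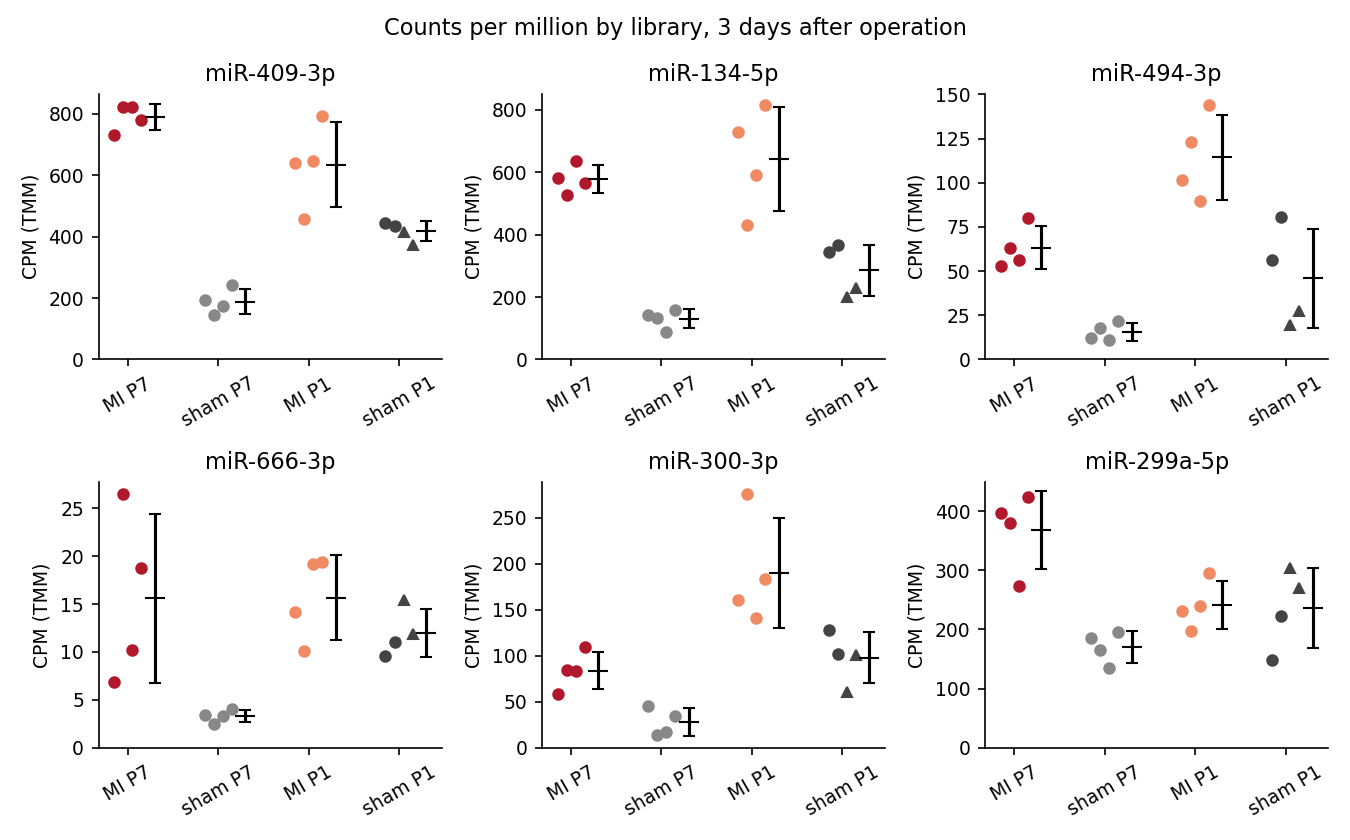
CPM (y axis, linear, starting at 0) of the 6 members with the smallest p for MI against sham at P7, in every 3-day library of the 4 groups; triangles are the sham P1 libraries of title code 1103 and bars give mean and SD (n = 4). In each panel the MI P7 points lie above all sham P7 points, while the MI P1 and sham P1 points overlap for miR-666-3p and miR-299a-5p.

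Other miRNAs moved in the same libraries. The summed level of the 5 heart muscle markers was 153150 to 169681 CPM after MI at P7, against 210789 to 324312 CPM after sham at P7. The summed level of the 3 fibroblast markers (miR-199a-3p, miR-199a-5p and miR-214-3p) was 4427 to 6147 CPM after MI at P7, against 2117 to 3656 CPM after sham at P7. Of the 25 tested markers of 10 cell types only miR-206-3p, known from skeletal muscle, passed (3.66 ± 0.69, adjusted p = 0.0047). Of the 4 leukocyte markers, miR-223-3p had 254 to 426 CPM after MI at P7, against 45.8 to 101.3 CPM after sham at P7, miR-142a-3p 262 to 518 CPM, against 50.9 to 182 CPM, and miR-142a-5p 148 to 327 CPM, against 26.4 to 113 CPM. These 3 did not overlap between the groups and did not pass (adjusted p = 0.120, 0.172 and 0.292), and miR-150-5p had a log2 fold change of -0.53. The part of these in the rise of the cluster was not tested. The brain-enriched miR-124-3p was at 0 in all 16 libraries, and the 5 neuron markers summed to 9.23 to 78.4 CPM after MI at P7, against 54.9 to 126 CPM after sham at P7.

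The 9 calls became 5 with DESeq2 size factors (16 of all 446 names called). Total count scaling gave 15 (58 of 446 names) and moved the median of all names to 0.47. With no filter on low counts 2 members and 8 of 1313 names were called. Leaving either pair of sham P1 libraries out of the shared fit gave 16 members. Of all names, 93 of 483 were then called without code 1103 and 88 of 459 without code 1078. Leaving out MI P7 replicate 2 or 4, sham P7 replicate 2 or 3 or MI P1 replicate 1, 3 or 4 gave 4 calls. Of all names 13 or 14 were then called. Without MI P7 replicate 3, sham P7 replicate 4 or sham P1 replicate 4 there were 5 calls, with 15 to 23 of all names. The calls of miR-409-3p, miR-134-5p, miR-494-3p and miR-666-3p held in each of the 16 fits that left out 1 library. However, miR-666-3p, with its few reads, did not pass the filter with only the compared groups in the fit, so it was not tested there.

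At 3 days after MI at P1 few members passed, and the values depended on the sham libraries. Of 32 tested members 2 rose and 1 fell, where 1.35% of all tested names rose and 17.0% fell. The median log2 fold change was 0.85 over the members and 0.03 over all names, with a positive value in 27 of 32 members. In 8 of the 32 every MI P1 library lay above every sham P1 library, against 6.73% of all names.

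mmu-miR-134-5p had 729, 431.7, 592 and 816 CPM after MI at P1, against 345, 365, 202 and 229.6 CPM after sham at P1. The groups did not overlap (1.17 ± 0.31, adjusted p = 0.0230). mmu-miR-494-3p had 101.3, 123, 89.5 and 144 CPM after MI at P1, against 56.2, 80.5, 19.3 and 27.4 CPM after sham at P1, again without overlap (1.30 ± 0.40, adjusted p = 0.0351). mmu-miR-668-3p had 8.32, 5.40, 12.001 and 9.04 CPM after MI at P1, against 7.92, 10.7, 55.0 and 62.4 CPM after sham at P1. The MI values lay around those of the code 1078 sham libraries and below those of code 1103, so its fold change of -1.94 ± 0.58 (adjusted p = 0.0331) rests on the code 1103 libraries.

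mmu-miR-409-3p, with 639, 456, 646 and 793 CPM after MI at P1, against 445, 436, 417 and 374 CPM after sham at P1, did not overlap but did not pass (0.60 ± 0.26, adjusted p = 0.110). Without the code 1103 libraries 0 members passed, as did 0 of all 483 names. Without the code 1078 libraries 24 of 32 members passed, 19 higher and 5 lower, a share near that of all names, of which 348 of 459 passed. The 3 calls became 0 without MI P1 replicate 1, 2 or 4 or sham P1 replicate 3 or 4, where 0 or 1 of all names passed. They became 6 without sham P1 replicate 1 (164 of 456 names) and 9 without sham P1 replicate 2 (162 of 454 names). With only the compared groups in the fit 0 members and 0 of 484 names passed.

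Of the 25 tested markers, miR-142a-3p (leukocyte) and miR-206-3p were higher after MI at P1 at 3 days. Lower were miR-133a-3p (heart muscle), miR-150-5p (leukocyte), miR-200c-3p (epithelium) and miR-486a-5p (erythroid). The lists were split, as other markers of the same cell types had positive log2 fold changes without passing. These were 0.96 for miR-451a and 0.07 for miR-144-3p (erythroid) and 1.28 for miR-200a-3p (epithelium). Among leukocyte markers miR-223-3p had 2.45 and miR-142a-5p 1.88. The heart muscle markers summed to 88820 to 157867 CPM after MI at P1, against 157079 to 254128 CPM after sham at P1. Of the 5, miR-133a-3p alone passed (-1.48 ± 0.43), and the log2 fold changes of the other 4 were -0.09 to 0.67. The neuron markers summed to 52.4 to 98.7 CPM after MI at P1, against 70.4 to 107 CPM after sham at P1. The liver marker mmu-miR-122-5p had 1641 CPM in MI P1 replicate 1 and 1.15 to 208 CPM in the other 3-day libraries. Their part in the members' values was not tested.

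The test of the difference between the MI effects at P7 and P1 at 3 days called 0 of 32 members in edgeR and 0.0% of all names in either direction, with 9 members and 71 of all names at an unadjusted p under 0.05. DESeq2 called 1 member and 6 of all 446 names. The members with the smallest p were mmu-miR-409-3p (difference of log2 fold changes 1.47 ± 0.38, adjusted p = 0.132), mmu-miR-666-3p (1.79 ± 0.61, adjusted p = 0.229) and mmu-miR-299a-5p (1.08 ± 0.42, adjusted p = 0.277). Without the code 1078 libraries 16 of 32 members passed, 11 higher and 5 lower, a smaller share than that of all names, of which 301 of 459 passed. Without the code 1103 libraries 0 members passed.

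Between the sham hearts of 3 days, the older hearts (P7, aged 10 days) had less of the cluster than the younger (P1, aged 4 days). Of 32 tested members 18 fell and 0 rose, where 18.2% of all names fell and 3.81% rose. With only the sham groups in the fit the filter let 22 members through, so some of the 32 entered the test through MI libraries. Among the called members, mmu-miR-382-3p was at 0 in all sham P7 libraries but replicate 4 (2.93 CPM). The count of 18 therefore includes members close to the floor in sham P7. The median log2 fold change was -1.71 over the members and -0.53 over all names, and 29 of 32 members had a negative value. The cluster's share of reads was 0.157% to 0.215% in sham P7 libraries and 0.320% to 0.549% in sham P1 libraries, where the code 1103 libraries had 0.320% and 0.411%.

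mmu-miR-381-3p had 18.6, 6.29, 10.97 and 22.3 CPM in sham P7, against 112, 98.7, 50.1 and 76.3 CPM in sham P1. The sham P7 libraries lay below the sham P1 libraries of both title codes (-2.51 ± 0.42, adjusted p = 0.00677). mmu-miR-299a-3p had 25.4, 15.1, 25.2 and 32.2 CPM in sham P7, against 216, 183, 45.3 and 61.8 CPM in sham P1 (-2.37 ± 0.48, adjusted p = 0.00797). mmu-miR-323-3p had 29.7, 15.1, 10.97 and 25.2 CPM in sham P7, against 55.5, 70.02, 58.8 and 59.1 CPM in sham P1, with both codes alike (-1.57 ± 0.34, adjusted p = 0.00797).

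mmu-miR-329-3p, from the same hind limb set as miR-494-3p, had 1.70, 0, 2.19 and 1.17 CPM in sham P7, against 7.46, 17.8, 4.82 and 5.38 CPM in sham P1. It rests on 0 to 2 reads in sham P7 (-2.78 ± 0.62, adjusted p = 0.00958). These 4 members were called in each fit that left out 1 library, and in each of them the groups did not overlap. mmu-miR-329-3p, however, entered the test through the P1 libraries, with 57 or more reads in each MI P1 library, and was not tested at a mean of at least 10 CPM or with the compared groups alone. mmu-miR-300-3p and mmu-miR-409-3p also fell without overlap, by 1.79 ± 0.41 (adjusted p = 0.0107) and by 1.15 ± 0.27 (adjusted p = 0.0111) on the log2 scale.

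Members with the same call differed in how they stood in the title codes. mmu-miR-369-5p had 5.93, 2.52, 3.29 and 5.27 CPM in sham P7, against 80.9 and 146 CPM in the code 1078 and 1.93 and 12.4 CPM in the code 1103 libraries of sham P1 (-3.79 ± 0.87, adjusted p = 0.0107). mmu-miR-379-5p had 83.1, 76.8, 106.5 and 166 CPM in sham P7, against 1082 and 1585 CPM in the code 1078 and 59.8 and 87.6 CPM in the code 1103 libraries of sham P1 (-2.70 ± 0.77, adjusted p = 0.0263). For both the sham P7 values lay within or next to those of code 1103, and when code 1103 stood alone for sham P1 mmu-miR-379-5p turned to 0.55 (adjusted p = 0.349).

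Without code 1078, 7 of the 18 calls were kept, and 73 of 459 names were called. Without code 1103, 22 of 33 members were lower and 5 higher, a share not far from that of all names, of which 352 of 483 were called. With only the compared groups in the fit 0 of 22 tested members and 0 of 357 names passed. The 18 became 5 without sham P7 replicate 2 (17 of 465 names called) and 6 without sham P7 replicate 3 (23 of 465). They became 9 without sham P1 replicate 2 (26 of 454 names). Without sham P7 replicate 1 (39 of 465 names) or sham P1 replicate 1 (31 of 456) they became 10. Of the markers, miR-150-5p (leukocyte) and miR-486a-5p (erythroid) were higher in sham P7. Lower were miR-143-3p (smooth muscle), miR-206-3p and miR-223-3p (leukocyte). Other markers of these cell types did not pass and in part went the other way. The log2 fold changes were -1.57 for miR-451a and -0.10 for miR-144-3p (erythroid) and -0.16 for miR-145a-5p (smooth muscle). Among leukocyte markers miR-142a-3p had 1.10 and miR-142a-5p -1.22. The part of the markers in the members' values was not tested.

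The members' differences at 3 days ran with base composition in the comparisons that use the sham P1 libraries. Across the 29 tested members with a sequence, GC content (23.8% to 68.2% over the members) and log2 fold change had Pearson r = -0.58 for MI against sham at P1 and 0.54 for sham P7 against sham P1, but -0.19 for MI against sham at P7. Across 360 other tested names the values were -0.61, 0.45 and -0.06. Within sham P1, the difference of code 1103 minus code 1078 on log2(CPM + 1) had r = 0.61 with GC content over 39 members. The members share libraries and depth and are not independent, so these values describe the libraries, and the part of base composition in the results was not tested. At 21 days r was -0.11 for MI against sham at P7 and 0.13 for MI against sham at P1, over 37 members.

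**Figure D3:**
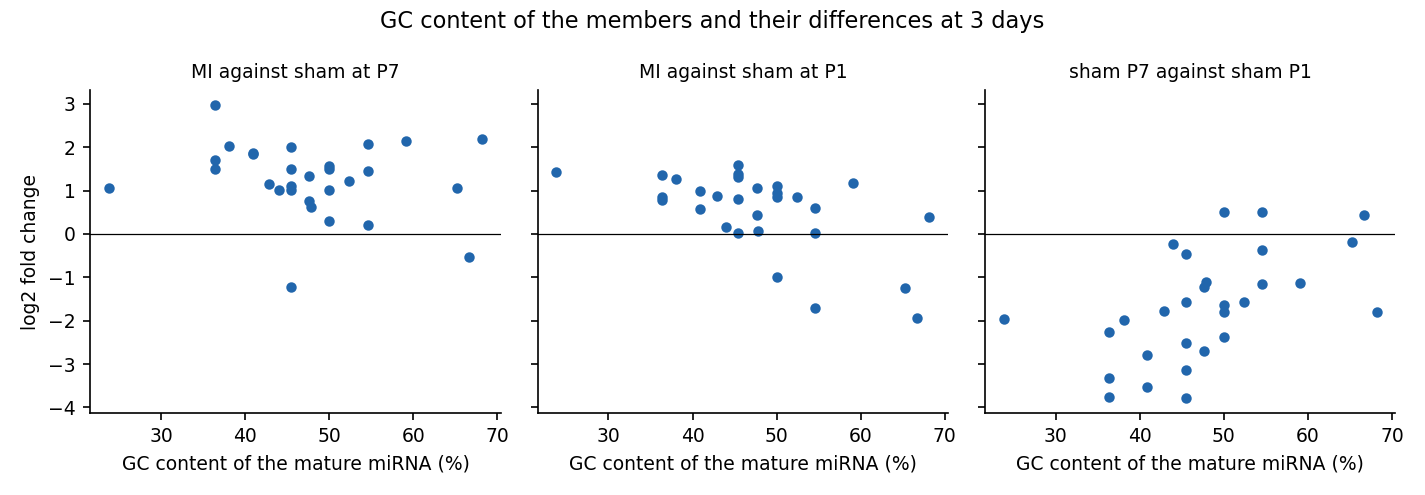
Log2 fold change at 3 days (y axis) against GC content of the mature miRNA in percent (x axis) for the 29 tested members with a sequence, in 3 comparisons. The points slope down for MI against sham at P1 (r = -0.58), up for sham P7 against sham P1 (r = 0.54) and little for MI against sham at P7 (r = -0.19).

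At 21 days after MI at P7, members of the cluster again rose and none fell. Of 40 tested members 18 rose and 0 fell, a share of 45.0%, where 13.2% of all 598 tested names rose and 8.86% fell. All 40 had a positive log2 fold change, from 0.19 to 1.49, with a median of 0.68, against 0.03 over all names. In 21 of the 40 every MI P7 library lay above every sham P7 library, against 16.6% of all names.

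Both arms of the miR-382 hairpin were among the clearest. mmu-miR-382-3p had 4.36, 4.31 and 6.50 CPM after MI at P7, against 2.19, 1.82 and 1.43 CPM after sham at P7. The groups did not overlap, on 84 to 133 and 26 to 37 reads (1.49 ± 0.28, adjusted p = 0.00456). mmu-miR-382-5p had 9.15, 8.02 and 8.95 CPM after MI at P7, against 2.82, 4.49 and 3.52 CPM after sham at P7, with little spread in the MI group (1.26 ± 0.30, adjusted p = 0.0132).

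mmu-miR-376b-5p, from a hairpin group known for A-to-I editing of its transcripts, had 12.8, 14.7 and 11.9 CPM after MI at P7, against 6.26, 7.54 and 6.54 CPM after sham at P7, and the groups were well separated (0.95 ± 0.21, adjusted p = 0.00983). mmu-miR-495-3p, which is known to promote proliferation of neonatal rat cardiomyocytes, had 6.599, 5.05 and 10.9 CPM after MI at P7, against 3.44, 2.66 and 3.85 CPM after sham at P7. mmu-miR-329-3p had 4.78, 4.22 and 9.29 CPM after MI at P7, against 2.58, 2.61 and 2.75 CPM after sham at P7. In both MI P7 replicate 3 was the highest library and no MI library fell within the sham range (1.18 ± 0.29, adjusted p = 0.0139, and 1.20 ± 0.30, adjusted p = 0.0140).

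mmu-miR-154-5p, whose inhibition is known to protect the pressure-overloaded mouse heart, had 17.1, 10.6 and 14.0 CPM after MI at P7, against 7.52, 7.64 and 6.32 CPM after sham at P7 (0.96 ± 0.24, adjusted p = 0.0141). mmu-miR-379-5p of the first hairpin had 21.3, 22.5 and 25.1 CPM after MI at P7, against 11.8, 16.4 and 12.1 CPM after sham at P7 (0.77 ± 0.22, adjusted p = 0.0246). mmu-miR-410-3p of the last hairpin, like miR-495-3p known to promote proliferation of neonatal rat cardiomyocytes, had 237, 183 and 157 CPM after MI at P7, against 124, 102 and 133 CPM after sham at P7 (0.68 ± 0.19, adjusted p = 0.0226). The rise thus reached both ends of the cluster, and in these 3 members the groups did not overlap.

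Among the most abundant members, mmu-miR-411-5p had 1452, 1225 and 820.03 CPM after MI at P7, against 802, 739.7 and 932 CPM after sham at P7. MI P7 replicate 3 fell within the sham range, and the fold change of 0.50 ± 0.21 did not pass (adjusted p = 0.10005). mmu-miR-541-5p had 479, 532 and 344 CPM after MI at P7, against 255, 299.5 and 312 CPM after sham at P7, without overlap but short of the threshold (0.65 ± 0.25, adjusted p = 0.0745). mmu-miR-381-3p had 216, 383 and 134.4 CPM after MI at P7, against 149, 99.6 and 138 CPM after sham at P7, and passed with replicate 3 inside the sham range (0.92 ± 0.31, adjusted p = 0.0483). Its near copy mmu-miR-300-3p had 97.2, 76.0 and 53.7 CPM after MI at P7, against 50.3, 46.4 and 56.6 CPM after sham at P7, and did not pass (0.57 ± 0.22, adjusted p = 0.0884).

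**Figure D4:**
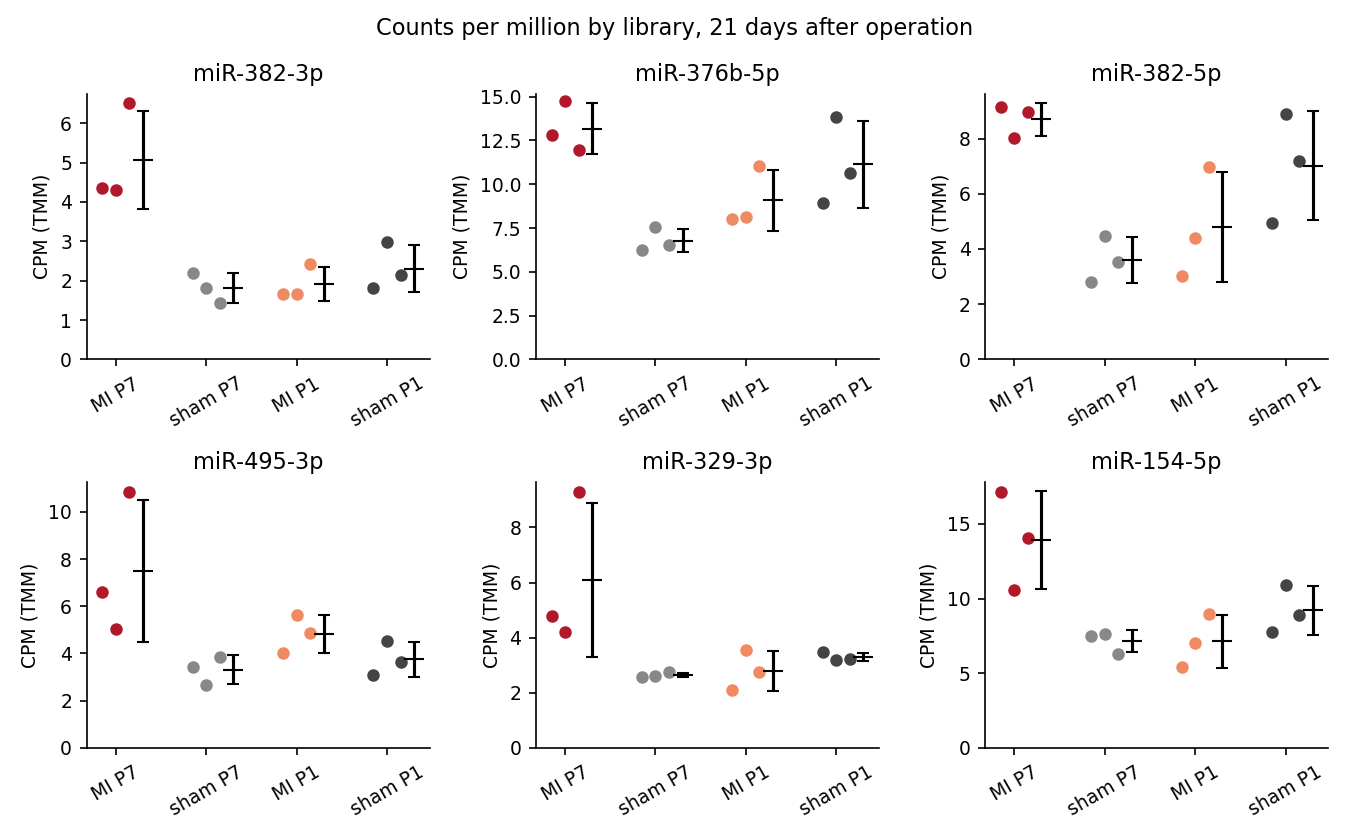
CPM (y axis, linear, starting at 0) of the 6 members with the smallest p for MI against sham at P7, in every 21-day library of the 4 groups, with bars for mean and SD (n = 3). In each panel all MI P7 points lie above all sham P7 points, as for miR-382-3p at 4.31 to 6.50 against 1.43 to 2.19 CPM, while the MI P1 and sham P1 points overlap.

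In the same 21-day comparison 6 of the 25 tested markers rose and 4 fell. Those that rose were the 3 fibroblast markers miR-199a-5p (2.10 ± 0.33), miR-214-3p (1.84 ± 0.33) and miR-199a-3p (1.66 ± 0.26), with miR-142a-3p (0.58 ± 0.19) of leukocytes and miR-200a-3p and miR-200b-3p of epithelium. Those that fell were miR-133a-3p (-1.01 ± 0.21), the endothelial miR-126a-3p (-0.78 ± 0.21), the leukocyte marker miR-150-5p (-1.26 ± 0.30) and the neuronal miR-9-3p (-1.39 ± 0.35). The leukocyte markers were thus split, and miR-142a-5p (0.22) and miR-223-3p (0.08) did not pass. The epithelial markers were split too, as miR-200c-3p had -0.28 and did not pass. miR-200a-3p and miR-200b-3p were low, at 1.86 to 4.52 CPM after MI at P7. The 3 fibroblast markers summed to 10615 to 22958 CPM after MI at P7, against 5098 to 6120 CPM after sham at P7, and the 5 heart muscle markers to 55970 to 92571 CPM, against 133851 to 157386 CPM. Of those 5, miR-133a-3p alone passed, and the log2 fold changes of the other 4 were -0.43 to 0.10. The part of these shifts in the rise of the cluster was not tested. The 5 neuron markers summed to 41.0 to 68.0 CPM after MI at P7, against 62.3 to 82.0 CPM after sham at P7.

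The 18 calls became 7 among the 13 members with a mean of at least 10 CPM (78 of 284 names called). With only the compared groups in the fit they became 3 (29 of 560 names). They became 6 without MI P7 replicate 1 (60 of 615 names) and 8 without sham P7 replicate 2 (65 of 613). Without sham P7 replicate 1 they became 10 (73 of 618 names), and without MI P7 replicate 3 they became 24 (155 of 616). Total count scaling called 26 members and 167 of 598 names, and moved the median of all names to 0.38. The libraries ran on lanes 3 and 5, and within lane 3 the cluster's share was 0.362% and 0.190% after MI at P7, against 0.141% and 0.161% after sham at P7, and within lane 5 it was 0.296% in 1 library, against 0.130% in 1. With lane as a covariate 17 of the 18 calls were kept, and 125 of 598 names were called.

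At 21 days after MI at P1 the cluster showed no called member in edgeR. Of 40 tested members 0 rose and 0 fell, where 0.0% of all names rose and 0.502% fell. DESeq2 also called 0 members. At an unadjusted p under 0.05 stood 2 members, each lower, where 29 of all 598 names were lower and 14 higher. The median log2 fold change was -0.22, and 31 of 40 members had a negative value. In 0 of 40 members every MI P1 library lay above every sham P1 library, against 7.36% of all names, and in 3 every MI P1 library lay below, against 60 of all 598 names.

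The smallest p belonged to mmu-miR-369-3p, which had 13.2, 12.3 and 11.6 CPM after MI at P1, against 15.9, 19.4 and 16.8 CPM after sham at P1. Its groups did not overlap, yet the fold change of -0.49 ± 0.17 was far from the threshold after adjustment (adjusted p = 0.648). mmu-miR-494-3p had 1.79, 3.02 and 3.29 CPM after MI at P1, against 3.998, 4.97 and 4.49 CPM after sham at P1 (-0.73 ± 0.31, adjusted p = 0.648), and mmu-miR-379-5p had 12.4, 16.3 and 19.0 CPM after MI at P1, against 17.6, 26.6 and 21.0 CPM after sham at P1 (-0.45 ± 0.22, adjusted p = 0.673). The first of these did not overlap between groups and the second did. None of the 25 tested markers passed either.

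The difference between the MI effects at P7 and at P1 was tested directly at 21 days. In 10 of 40 members the effect at P7 was the higher and in 0 the lower, a share of 25.0%, where 7.86% of all names were higher and 2.01% lower. The median difference of log2 fold changes was 0.83 over the members and 0.04 over all names, positive in 39 of 40 members.

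mmu-miR-369-3p had 21.7, 21.1 and 18.0 CPM after MI at P7 and 13.1, 11.9 and 13.6 CPM after sham at P7, with the P1 values given above lying the other way round. The effects were 0.66 ± 0.17 at P7 and -0.49 ± 0.17 at P1, a difference of 1.15 ± 0.24 (adjusted p = 0.0137). mmu-miR-382-5p had 3.03, 4.39 and 6.96 CPM after MI at P1, against 4.95, 8.90 and 7.20 CPM after sham at P1, a fold change of -0.54 ± 0.30 that overlapped between groups, and the difference from its P7 effect was 1.80 ± 0.43 (adjusted p = 0.0203). mmu-miR-382-3p had 1.67, 1.66 and 2.43 CPM after MI at P1, against 1.81, 2.98 and 2.14 CPM after sham at P1, and the difference was 1.75 ± 0.40 (adjusted p = 0.0178).

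For mmu-miR-376b-5p the difference was 1.25 ± 0.30 (adjusted p = 0.0210), for mmu-miR-154-5p 1.32 ± 0.34 (adjusted p = 0.0272) and for mmu-miR-379-5p 1.22 ± 0.31 (adjusted p = 0.0272). mmu-miR-376b-5p had 8.03, 8.12 and 11.1 CPM after MI at P1, against 8.95, 13.8 and 10.6 CPM after sham at P1, so that all 3 MI P7 libraries lay above its MI P1 libraries while the sham P7 libraries lay below those of sham P1. The other 4 members called were mmu-miR-667-3p, mmu-miR-376b-3p, mmu-miR-666-3p and mmu-miR-329-3p, with differences of 1.497, 1.15, 1.63 and 1.43.

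With lane as a covariate 0 of these 10 calls and 0 of all 598 names passed, while the 10 differences were 0.96 (mmu-miR-376b-3p) to 1.85 (mmu-miR-382-5p). The adjusted p was 0.0595 for mmu-miR-369-3p, the smallest of the 10, and 0.136 for mmu-miR-329-3p, the highest. All 3 sham P1 libraries ran on lane 3, and 2 of the 3 MI P1 libraries ran on lane 5. The same test without lane called 5 markers higher (the 3 fibroblast markers, miR-200a-3p and miR-200b-3p) and 2 lower (miR-133a-3p and miR-9-5p). The epithelial miR-200c-3p had a difference of -0.71, and the other heart muscle markers had -0.43 to 0.36, without passing. The part of the markers in the members' values was not tested. The 10 member calls became 26 with total count scaling (137 of 598 names called). They became 3 of 13 members with a mean of at least 10 CPM (36 of 284 names). They became 0 without sham P1 replicate 2 (16 of 617 names) and 1 without MI P1 replicate 1 (16 of 619) or 2 (21 of 616). Without sham P7 replicates 1 and 3 they became 2 (25 of 618 names) and 3 (28 of 613). They became 6 without MI P7 replicate 1, sham P7 replicate 2 or sham P1 replicate 3, with 37 to 41 of all names called. Without MI P7 replicate 3 they became 20 (97 of 616 names).

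**Figure D5:**
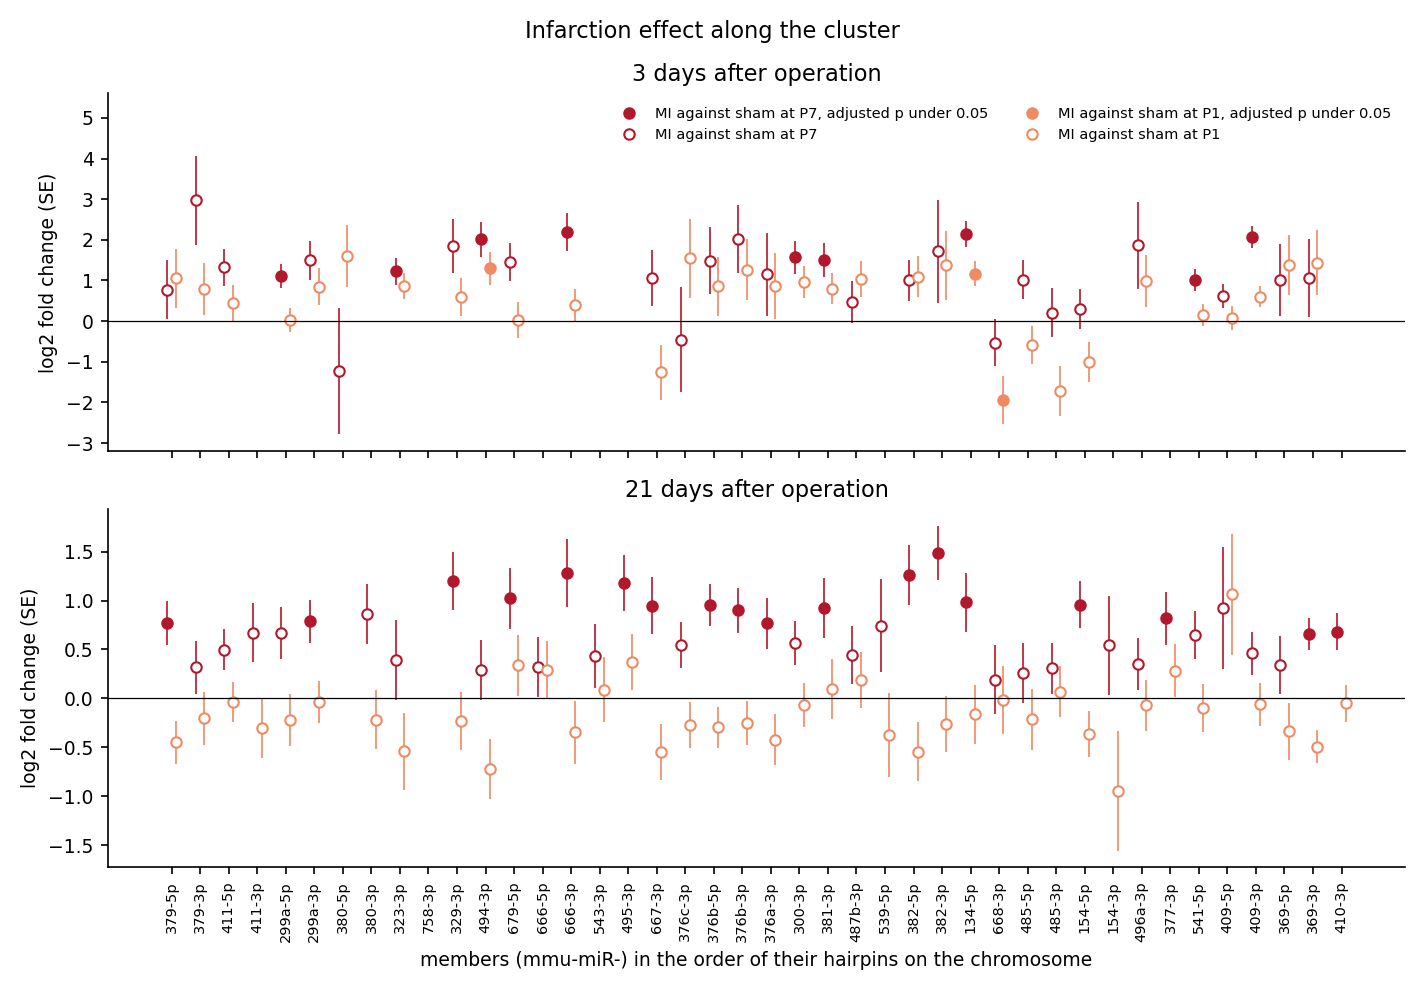
Log2 fold change of MI against sham with its SE (y axis) at P7 and at P1 for each tested member in the order of the hairpins (x axis), at 3 days (top) and 21 days (bottom); filled points have an adjusted p under 0.05, and a member without a point was not tested. At 21 days all 40 P7 values are above 0 and 31 of the 40 P1 values are below 0, along the whole cluster.

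Between the sham hearts of 21 days, aged 28 and 22 days, 0 of 40 members and 0.0% of all names passed in either direction in edgeR. At an unadjusted p under 0.05 stood 10 members, all lower, where 55 of all 598 names were lower and 17 higher. DESeq2 called 1 of the 40 members, lower, and 14 of all 598 names, a share near that of the members. The log2 fold change of sham P7 against sham P1 was negative in 37 of 40 members, with a median of -0.36, against -0.0018 over all names. mmu-miR-666-3p had 0.861, 1.08 and 1.43 CPM in sham P7, against 2.28, 3.08 and 3.05 CPM in sham P1, without overlap (-1.30 ± 0.35, adjusted p = 0.112). mmu-miR-376b-5p had 6.26, 7.54 and 6.54 CPM in sham P7, against 8.95, 13.8 and 10.6 CPM in sham P1, also without overlap (-0.71 ± 0.21, adjusted p = 0.158). For mmu-miR-379-5p the values were 11.8, 16.4 and 12.1 CPM in sham P7, against 17.6, 26.6 and 21.0 CPM in sham P1 (-0.69 ± 0.22, adjusted p = 0.190).

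A hairpin yields a mature miRNA from its 5p arm and another from its 3p arm, and the members include both arms of 11 hairpins. Where both arms had at least 10 reads in every library of a follow-up, their log2 ratio of 3p to 5p was compared over libraries. The tests were two-sided exact permutation tests, 33 in all. With so few libraries a group none of them could have passed after adjustment. That 0 passed (smallest adjusted p = 0.367) therefore does not show that the arms were unchanged. The clearest arm shift was at miR-409 at 3 days, where the 3p arm held 95.045% to 97.0% of the hairpin's reads after MI at P7, against 87.8% to 90.4% after sham at P7. Its mean log2 ratio was 4.55 ± 0.32 after MI at P7, against 3.08 ± 0.18 after sham at P7 (SD, n = 4 each), without overlap, at an exact permutation p = 0.0286, the smallest that 4 against 4 libraries allow. mmu-miR-409-5p itself did not pass at P7 (0.62). At miR-485 at 3 days the mean log2 ratio was 2.11 after MI at P1, against 2.96 after sham at P1. These groups did not overlap either, at the same exact permutation p = 0.0286. With 3 against 3 libraries at 21 days the exact test cannot go below p = 0.1.

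The rest of the Dlk1-Dio3 miRNAs were set beside the members. Of 18 tested miRNAs of the proximal hairpins (Meg3, Rtl1 antisense and Rian side), 2 rose 3 days after MI at P7, miR-341-3p (1.39 ± 0.34) and miR-540-3p (2.53 ± 0.40). The median of the 18 was 0.92, and 5.16% of all names rose in that comparison. At 21 days after MI at P7, 9 of 19 proximal miRNAs rose, among them miR-337-3p (1.82 ± 0.40), miR-127-3p (1.19 ± 0.25) and miR-341-3p (1.06 ± 0.20), with a median of 0.77, and 3 had a higher effect at P7 than at P1. Of all names 13.2% rose there, and 7.86% had a higher effect at P7 than at P1. After MI at P1, miR-370-3p fell at 3 days, where 17.0% of all names fell, and 0 of 19 passed at 21 days. Between the sham hearts of 3 days 5 of the 18 fell and 0 rose, where 18.2% of all names fell and 3.81% rose. Of the distal arms outside the members, 0 of 8 tested passed 3 days after MI at P7, after MI at P1 or in the difference of these effects. In sham P7 against sham P1, 1 of 8, miR-412-5p, was lower, a smaller share than the 18.2% of all names. At 21 days after MI at P7, 2 of 7 rose, miR-376a-5p and miR-539-3p, where 13.2% of all names rose, and 0 of 7 passed in the other 3 comparisons of 21 days.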

How the data were processed

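Small RNA of 28 left ventricular samples was sequenced, with 4 libraries in each of 4 groups at 3 days and 3 at 21 days. Per the labels' protocols, the kit was Qiagen QIAseq miRNA at 3 days and Illumina TruSeq Small RNA at 21 days, so the follow-ups were never fitted together. The authors deposited whole-number counts per hairpin and mature miRNA, with no normalization. GRCm38, edgeR and Bowtie2 2.2.2 are named in the submitters' processing notes, without their roles. Which program counted reads, and whether molecular identifiers were collapsed, is not given in the sources used here.

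A name listed under several hairpins kept its highest count. All 28 library totals differed. Tests used edgeR 4.0.16 in R 4.3.3 (TMM, filterByExpr at a minimum count of 10, robust quasi-likelihood F test, Benjamini-Hochberg over all tested names), with 12 residual degrees of freedom at 3 days and 8 at 21 days. The steps were tested on simulated data. Alternatives were DESeq2 1.42.0 (its size factors and its Wald test), total count scaling, other filters, summed hairpins, fits of the compared groups alone, lane, replicate block, title codes and leaving out each library. Beyond the sampling error of the counts, the fits gave a common coefficient of variation between libraries of 0.545 at 3 days and 0.25 at 21 days.

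Shown library by library were the 5 most abundant members per follow-up, up to 6 called members with the smallest p per comparison (the 3 smallest where fewer than 3 passed), and the first and last hairpin. The members and lists were chosen with earlier results of these data known.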

Additional observations from a re-analysis of the deposited data

Results flagged for a closer look

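Of 92 sets of 4 libraries checked at 3 days (the cluster's share and the named members, in each group), 8 held a library that stood apart from the other 3 by Dixon's test at its 95% level. For normally distributed values chance flags about 1 in 20 groups. The test always flags a group with 1 library above 0 and the others at 0, as for mmu-miR-382-3p and mmu-miR-410-3p below, so that rate does not hold for such counts. After MI at P1, replicate 2 was the stray library for mmu-miR-376b-5p (highest, 79.2 CPM), mmu-miR-382-5p (lowest, 996 CPM) and mmu-miR-541-5p (lowest, 348 CPM), and replicate 3 for mmu-miR-495-3p (lowest, 0.814 CPM). After MI at P7, replicate 1 stood apart for mmu-miR-668-3p (50.8 CPM) and replicate 3 for mmu-miR-410-3p (0.732 CPM, the other 3 at 0). After sham at P7, replicate 4 stood apart for mmu-miR-382-3p (2.93 CPM, the other 3 at 0) and replicate 1 for mmu-miR-410-3p (0.848 CPM, the other 3 at 0).

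The MI effects at P7 and P1 differed at 21 days, by the test of the difference itself, in 10 members. The difference of log2 fold changes (P7 minus P1) was 1.15 for mmu-miR-369-3p, 1.75 for mmu-miR-382-3p, 1.80 for mmu-miR-382-5p, 1.25 for mmu-miR-376b-5p and 1.32 for mmu-miR-154-5p. It was 1.22 for mmu-miR-379-5p, 1.497 for mmu-miR-667-3p, 1.15 for mmu-miR-376b-3p, 1.63 for mmu-miR-666-3p and 1.43 for mmu-miR-329-3p. With lane as a covariate 0 of these 10 and 0 of all 598 names passed, with differences of 0.96 (mmu-miR-376b-3p) to 1.85 (mmu-miR-382-5p).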

How the results depend on the processing

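Counts of called members are given for each comparison, with the value as reported first. For MI against sham at P7 at 3 days the 9 became 5 with DESeq2 size factors (16 of 446 names) and 15 with total count scaling (58 of 446). They became 2 with no filter (8 of 1313 names) and 12 of 20 tested members with only the compared groups (65 of 332). Without the sham P1 libraries of title code 1103 or 1078 they became 16 (93 of 483 and 88 of 459 names). On leaving out 1 library they became 4 to 10. For MI against sham at P1 at 3 days the 3 became 0 with no filter (15 of 1313 names), with only the compared groups (0 of 484) and without code 1103 (0 of 483). They became 5 at a mean of at least 10 CPM (98 of 355 names) and 7 in DESeq2 (122 of all 446 names). Without code 1078 they became 24 (348 of 459 names), and on leaving out 1 library 0 to 9. For the difference of these effects the 0 became 1 in DESeq2 (6 of 446 names) and 16 without code 1078 (301 of 459 names), and stayed 0 on leaving out 1 library. For sham P7 against sham P1 at 3 days the 18 became 0 with only the compared groups (0 of 357 names) and 7 without code 1078 (73 of 459 names). On leaving out 1 library they became 5 to 22. Without code 1078, mmu-miR-379-5p turned to 0.55 and mmu-miR-382-3p to 0.0201.

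For MI against sham at P7 at 21 days the 18 became 7 at a mean of at least 10 CPM (78 of 284 names). They became 3 with only the compared groups (29 of 560 names) and 9 with the replicate block (85 of 598). On leaving out 1 library they became 6 to 24. For the difference of effects at 21 days the 10 became 26 with total count scaling (137 of 598 names) and 3 at a mean of at least 10 CPM (36 of 284). They became 0 with lane as a covariate (0 of 598 names) and 2 with the replicate block (33 of 598). On leaving out 1 library they became 0 to 20. For sham P7 against sham P1 at 21 days the 0 became 1 with no filter (29 of 1367 names), 1 in DESeq2 (14 of 598 names) and 2 with only the compared groups (22 of 560 names). It stayed 0 on leaving out 1 library, as did MI against sham at P1. Of 15 pairs of libraries with the same title number, as used for the replicate block, 3 had correlated deviations above 0.1 (range -0.31 to 0.33). Pairs with different numbers were not set beside them, so these values cannot decide whether the title numbers pair the samples. Why these counts moved was not tested, apart from fewer libraries or fewer tested names in some fits. Shallow 3-day P7 libraries limit members with few reads.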
